A study of Danio rerio with 5 samples.

Results

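Border zone cardiomyocytes, the heart muscle cells that lie next to an injury, were followed at 1, 3 and 7 days post-cryo-injury (dpci) for 4 genes of the thin filament: tnnt2a (ENSDARG00000020610, cardiac troponin T), tnnc1a (ENSDARG00000011400, cardiac troponin C), tnni1b (ENSDARG00000052708, a troponin I) and tpm4a (ENSDARG00000023963, a tropomyosin). The 4 were taken by gene ID and make up 4 of 17997 genes in the tables, and all 4 were found in every table. The thin filament is the actin strand of the sarcomere. Tropomyosin lies along it and covers the sites that myosin binds. When calcium binds troponin C, the troponin complex moves tropomyosin aside and contraction can start, while troponin I holds the filament off at low calcium and troponin T ties the complex to tropomyosin.

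All cells came from adult zebrafish of the TL background that carried TgBAC(nppa:mCitrine), a fluorescent reporter of the natriuretic peptide gene nppa, which marks the border zone. The ventricle had been cryo-injured in every fish, and no uninjured or sham plate was analysed here. Cells were sorted on mCitrine at 1, 3 and 7 dpci, 1 per well of 384-well plates, and profiled by SORT-seq, a 3′ tag method that counts transcripts by unique molecular identifiers (UMIs). There was 1 plate at 1 dpci, 1 at 3 dpci and 3 at 7 dpci. The paper's figure legends give several hearts for each time point, but the fish in each plate are not given. The p-values thus measure the spread between plates, which may be technical. The deposited file names place 1 and 3 dpci in 1 sequencing run, 7 dpci plate 1 in another and 7 dpci plates 2 and 3 in yet another, so run and time point cannot be told apart where 7 dpci is compared with the earlier plates.

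Wells with at least 500 UMIs, without spike-ins and mitochondrial genes, were kept as cells, which left 169 to 283 cells per plate and 1175 in all. Median UMIs per cell were 1023 on 7 dpci plate 1 and 2178 to 2700 on the other plates. Cardiomyocyte markers took 8.48% of UMIs at 1 dpci, 11.7% at 3 dpci and 18.0% to 19.6% at 7 dpci. They include the myosin light chains MYL7 and cmlc1 but none of the 4 thin filament genes. Some wells also held markers of other cells. In 38 wells at 1 dpci and 22 at 3 dpci, but in 1 or 2 wells of each 7 dpci plate, macrophage, neutrophil, endothelial and epicardial or fibroblast markers together reached at least 10% of the cardiomyocyte marker UMIs. These wells held 34.8% and 18.8% of all UMIs at 1 and 3 dpci, against 0.627% to 2.31% at 7 dpci. Of the 19 macrophage, 4 neutrophil, 9 endothelial and 8 epicardial or fibroblast markers, all were detected at 1 dpci, and the neutrophil markers lyz and npsn were at 0 on every plate after it. The wells that remained are called strict cardiomyocyte wells, a choice made after seeing the data, and CPM levels are given below for both sets. The markers of other cells equalled or passed the cardiomyocyte marker UMIs in only 10 wells at 1 dpci, 10 at 3 dpci and at most 1 of each 7 dpci plate. The rest of the 38 and 22 wells held more cardiomyocyte marker UMIs. Where only the former wells are left out, the setting is called cardiomyocyte wells. In a sum over a plate, fewer cells of a type and less RNA per cell cannot be told apart.

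Tropomyosin is described first, with levels given as CPM, the UMIs of a gene per 1000000 UMIs of the plate. tpm4a gave 9505 CPM on the 1 dpci plate and 12854 on the 3 dpci plate, and 7 dpci plates 1, 2 and 3 gave 12681, 14134 and 14040. In all cells 1 dpci was thus the lowest plate, and 3 dpci lay within the range of 7 dpci. Among strict cardiomyocyte wells the same plates gave 13548, 15529, 12952, 14206 and 14128 CPM, so that 1 dpci lay within the 7 dpci range and 3 dpci lay above it.

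Troponin T, which anchors the complex, gave a similar picture. tnnt2a stood at 6564 CPM on the 1 dpci plate and 8355 on the 3 dpci plate, and the 7 dpci plates gave 7858, 10412 and 10800. All 3 of the 7 dpci plates lay above 1 dpci, and plate 1 lay below 3 dpci. Its values in strict cardiomyocyte wells were 9661, 10140, 8029, 10472 and 10856 CPM, and the 7 dpci plates lay on both sides of the 2 earlier plates.

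Troponin I, the inhibitory subunit, also differed between the 7 dpci plates, with a mean of 5718 CPM ± 1454 (SD, n = 3). tnni1b gave 3109 CPM on the 1 dpci plate, 4763 on the 3 dpci plate and 4099, 6142 and 6912 CPM on 7 dpci plates 1, 2 and 3. Every 7 dpci plate lay above 1 dpci. With strict cardiomyocyte wells it gave 4555, 5711, 4182, 6182 and 6950 CPM, with 7 dpci plates 2 and 3 above both earlier plates and plate 1 below both.

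Troponin C, the calcium sensor, behaved differently from the rest at 7 dpci. tnnc1a gave 3506 CPM on the 1 dpci plate, 5419 on the 3 dpci plate and 3341, 4228 and 4103 CPM on 7 dpci plates 1, 2 and 3, so 3 dpci was the highest plate and the 7 dpci plates lay on both sides of 1 dpci. Strict cardiomyocyte wells gave 5159, 6561, 3384, 4257 and 4127 CPM, and all 3 of the 7 dpci plates lay below both earlier plates. Together the 4 genes took 2.27% of UMIs (1 dpci), 3.14% (3 dpci) and 3.29% ± 0.430 (7 dpci, SD, n = 3), and 3.29%, 3.79% and 3.32% ± 0.409 in strict cardiomyocyte wells.

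**Figure D1:**
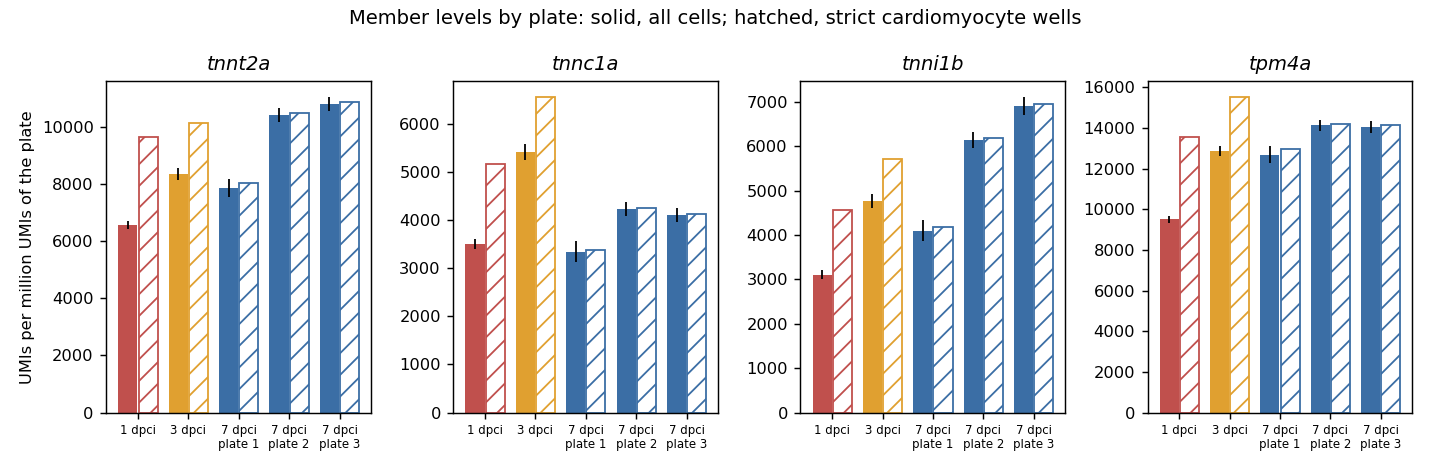
CPM of each gene on the 5 plates, solid bars for all cells (black bars, exact 95% Poisson intervals for counting error only) and hatched bars for strict cardiomyocyte wells. At 1 dpci tnnt2a stood at 6564 in all cells and 9661 in strict cardiomyocyte wells, whereas the 2 bars nearly coincide at 7 dpci.

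The question of a change between time points was put to edgeR's quasi-likelihood test on UMIs summed per plate, over 5624 genes that averaged 10 CPM or more. The 1 and 3 dpci groups have 1 plate each and were assumed to vary like the 7 dpci plates. For 7 against 1 dpci, 3 of the 4 genes were called higher (Benjamini-Hochberg adjusted p under 0.05), where 7.49% of all genes tested were called in either direction, 2.79% higher and 4.69% lower. The log2 fold changes in edgeR were 1.57 for tnni1b (SE 0.371, adjusted p = 0.0393), 1.25 for tnnt2a (SE 0.296, adjusted p = 0.0402) and 1.20 for tpm4a (SE 0.236, adjusted p = 0.0226). tnnc1a did not pass, at 0.83 (SE 0.284, edgeR adjusted p = 0.117). On the scale of this fit, TMM-scaled CPM, each of the 4 lay above its 1 dpci value on every 7 dpci plate: tnnt2a went from 5058 to 12009 ± 2674 (SD, n = 3), tnni1b from 2395 to 7106 ± 2138, tpm4a from 7323 to 16806 ± 2151 and tnnc1a from 2702 to 4815 ± 913. The median of the 4 log2 fold changes was 1.22, beside -0.13 over all genes tested.

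These calls lay close to the threshold and did not hold across the settings tried. The result above takes the CPM filter first and the TMM scaling factors after it, an order settled only after all 3 possible orders had been run. With TMM before the filter, which was run first, none of the 4 was called (edgeR adjusted p = 0.116 for tnnt2a, 0.0947 for tnni1b, 0.0780 for tpm4a and 0.308 for tnnc1a). In that fit 69 of 5468 genes tested were called higher and 274 lower. With TMM before and after the filter, tnnt2a, tnni1b and tpm4a were called (edgeR adjusted p = 0.0446, 0.0442 and 0.0255), where 147 of 5468 genes were called higher and 257 lower. In strict cardiomyocyte wells none was called: the log2 fold changes were 0.84 for tnni1b, 0.51 for tnnt2a, 0.51 for tpm4a and 0.10 for tnnc1a (edgeR adjusted p = 0.313, 0.473, 0.329 and 0.943), where 0.709% of 4795 genes were called (0.355% higher and the same share lower). With ERCC spike-in totals as the library size all 4 turned to lower values at 7 dpci, from -0.15 for tnni1b to -0.84 for tnnc1a, none of them called. Such scalings shift all genes: the median log2 fold change was -0.85 with library totals and -1.78 with ERCC totals, and genes called higher and lower numbered 49 and 497, and 5 and 883, against 157 and 264 in the reported fit. Relative to those medians, the 4 genes lay 0.95 to 1.68 higher with library totals and 0.94 to 1.64 higher with ERCC totals, against 0.96 to 1.70 in the reported fit and 0.17 to 0.91 in strict cardiomyocyte wells. A change of library size moves the genes and their median nearly alike. The likeness of the library total, ERCC and reported distances was thus bound to occur and is no support for the calls. Without 7 dpci plate 1 all 4 were called (1.53 for tnnt2a, 1.09 for tnnc1a, 1.91 for tnni1b and 1.41 for tpm4a). The spread in that fit came only from plates 2 and 3, which share a sequencing run. Its calls are thus no stronger evidence than those of the reported fit. Of 5810 genes tested there, 599 were called higher and 725 lower. Without plate 2 none of the 4 was called, at nearly the reported fold changes, where 0 of 5942 genes were. Without plate 3 tnnt2a was not called (edgeR adjusted p = 0.0526), where 108 of 5891 genes were called higher and 312 lower.

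**Figure D2:**
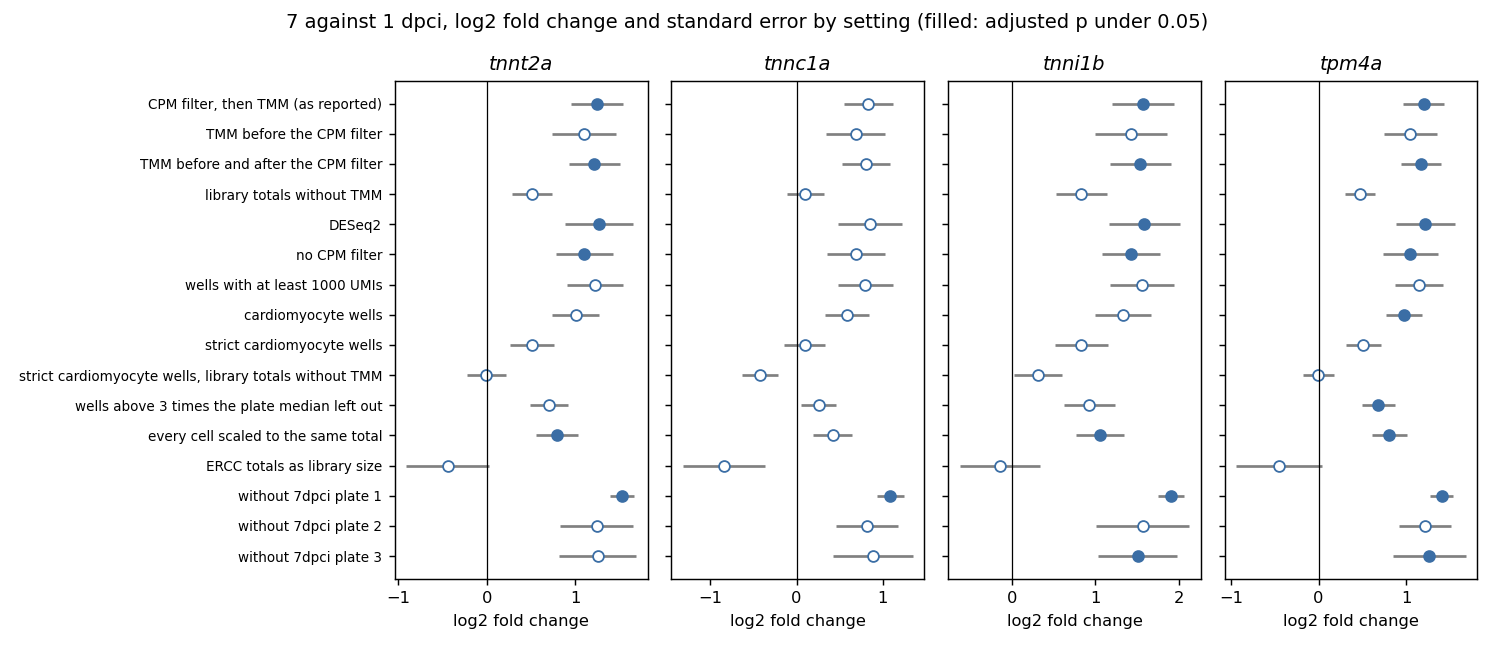
Log2 fold change of 7 against 1 dpci (points) with its standard error (bars) for each gene under 16 settings, filled where the adjusted p was under 0.05. The top line is the fit described in the text, with 1.25 for tnnt2a. The points move to 0.51 in strict cardiomyocyte wells and to -0.44 with spike-in totals.

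Against 3 dpci none of the 4 was called, where 1.87% of genes tested were (0.64% higher and 1.23% lower). The edgeR log2 fold changes of 7 against 3 dpci were 0.85 for tnni1b (SE 0.354, adjusted p = 0.292), 0.80 for tnnt2a (SE 0.288, adjusted p = 0.217), 0.66 for tpm4a (SE 0.228, adjusted p = 0.195) and 0.11 for tnnc1a (SE 0.272, adjusted p = 0.941). In strict cardiomyocyte wells they were 0.44, 0.37, 0.24 and -0.32 in that order, again none called, where 0.563% of genes were (0.25% higher and 0.313% lower). Without 7 dpci plate 1, tnnt2a, tnni1b and tpm4a were called, at 1.03, 1.14 and 0.82, and tnnc1a was not. The spread there came only from the remaining 7 dpci plates, which share a sequencing run. In that fit 375 of 5810 genes tested were called higher and 415 lower. These fits do not show that the genes stayed level. The comparisons with 1 and with 3 dpci share the 7 dpci plates.

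Between 1 and 3 dpci there was 1 plate on each side and no test. On the TMM scale the log2 ratio of 3 to 1 dpci was 0.73 for tnnc1a (exact 95% interval 0.67 to 0.79, counting error only), 0.71 for tnni1b (0.65 to 0.78), 0.53 for tpm4a (0.50 to 0.57) and 0.45 for tnnt2a (0.40 to 0.49). In strict cardiomyocyte wells the ratios were 0.42, 0.40, 0.27 and 0.14 in the same order. All 4 intervals lay above 0 in both sets, and the median over all genes was -0.06 and -0.07 in the 2 sets.

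The members' ratios to each other within a plate do not depend on library scaling, and they set tnnc1a apart. Per 100 UMIs of tnnt2a there were 53.4 of tnnc1a on the 1 dpci plate (exact 95% interval 51.5 to 55.4) and 64.9 on the 3 dpci plate (62.4 to 67.4), while the 7 dpci plates gave 42.5, 40.6 and 37.99, with a mean of 40.4 ± 2.27 (SD, n = 3). All 3 of the 7 dpci plates lay below both earlier plates by more than that SD. The values barely moved in strict cardiomyocyte wells, at 53.4, 64.7, 42.1, 40.7 and 38.02. Per 100 UMIs of tnni1b there were 113 and 114 of tnnc1a on the 1 and 3 dpci plates and 81.5, 68.8 and 59.4 on 7 dpci plates 1, 2 and 3. tnni1b per 100 tnnt2a ran the other way, from 47.4 at 1 dpci and 57.0 at 3 dpci to 58.4 ± 5.94 (SD, n = 3), where the 7 dpci range of 52.2 to 64.0 held the 3 dpci value. tpm4a per 100 tnnt2a was 145, 154 and 161, 136 and 130 on the 5 plates, with no order between time points. These are ratios of UMIs of 3′ tags, so their size says nothing of the ratio of the proteins, and with 1 plate at 1 and at 3 dpci the differences were not tested.

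**Figure D3:**
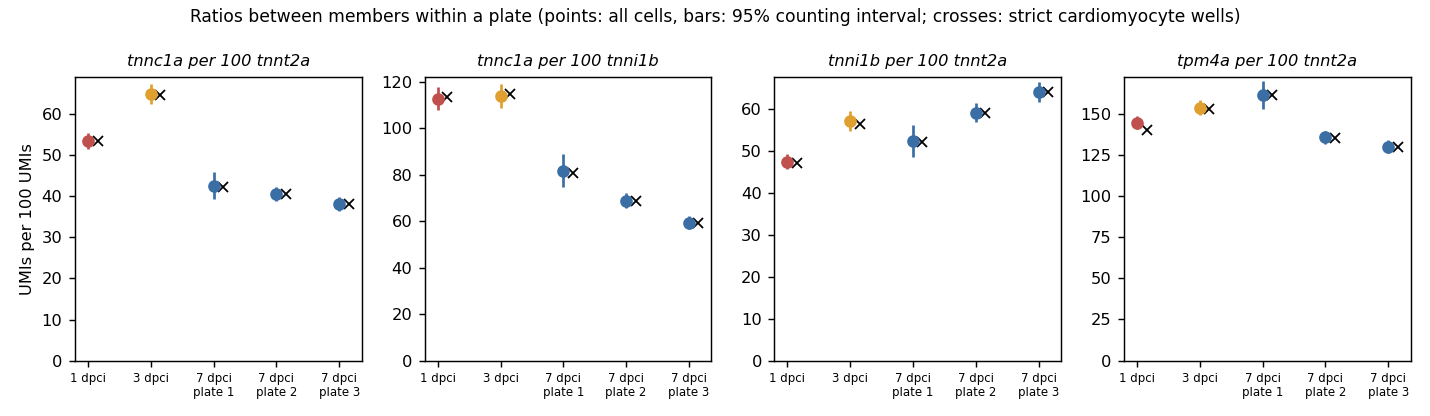
UMIs of one gene per 100 UMIs of another on each plate (points, all cells, with exact 95% counting intervals as bars) and in strict cardiomyocyte wells (crosses). tnnc1a per 100 tnnt2a is 53.4 and 64.9 on the earlier plates and lies between 37.99 and 42.5 on the 7 dpci plates. Its crosses, drawn to the right of the points, have nearly the same values. For tpm4a per 100 tnnt2a at 1 dpci the cross stands at 140 and the point at 145.

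The share of cells with a UMI of a gene was compared at equal depth. Each cell with at least 1000 UMIs was thinned to 1000 UMIs, which left 240 cells of 1 dpci, 211 of 3 dpci and 90, 189 and 185 on the 7 dpci plates. A UMI of tpm4a was then found in 97.1% (exact 95% interval 94.1 to 98.8) of cells (1 dpci), 95.3% (91.5 to 97.7, 3 dpci) and 99.1% ± 1.16 (7 dpci, SD, n = 3). For tnnt2a the shares were 94.2% (90.4 to 96.8), 94.3% (90.3 to 97.0) and 98.5% ± 2.57. For tnnc1a they were 89.2% (84.5 to 92.8), 92.4% (88.0 to 95.6) and 94.97% ± 2.95, and for tnni1b 87.5% (82.6 to 91.4), 92.4% (88.0 to 95.6) and 93.3% ± 2.94. The SDs depend on the draw. As means over 50 draws the 7 dpci shares were 94.6% ± 0.790 for tnnc1a and 92.4% ± 4.28 for tnni1b. For tnnt2a they were 98.2% ± 1.90 and for tpm4a 99.3% ± 0.386 (SD, n = 3). Unthinned, the shares by plate ran from 93.5% to 99.1% for tnnt2a, 92.3% to 97.4% for tnnc1a and 99.3% to 100% for tpm4a. For tnni1b they ran from 94.0% to 96.5% on 4 plates and stood at 79.3% on 7 dpci plate 1, the plate of lowest depth. In the 35 wells at 1 dpci that reached the marker limit, of median depth 11033 UMIs, only 60.0% (42.1 to 76.1) held a tnnt2a UMI after thinning, against 100% of 205 strict cardiomyocyte wells, of median depth 2861. For tnnc1a the shares were 34.3% (19.1 to 52.2) and 98.5%. The wells were split by other markers relative to cardiomyocyte markers, so a lower share of cardiomyocyte genes goes with that choice and is no separate result. Strict cardiomyocyte wells showed no rise to 7 dpci. At 1, 3 and 7 dpci they gave 98.5%, 98.9% and 94.9% ± 2.95 for tnnc1a and 95.6%, 98.9% and 93.4% ± 3.15 for tnni1b (SD, n = 3). For tnnt2a they gave 100%, 98.9% and 99.2% ± 1.31, and for tpm4a 100%, 100% and 99.6% ± 0.656. Wells led by macrophage markers, 13 in all and of median depth 6352 UMIs, held the genes at 257 to 1226 CPM, far under the strict cardiomyocyte wells. Unthinned, 11 or 12 of the 13 had a UMI of each. The 13 were likewise chosen by macrophage markers relative to cardiomyocyte markers, so low levels go with the choice.

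Cells differed most in tnnt2a and tnni1b at 7 dpci. Among strict cardiomyocyte wells thinned to 1000 UMIs, the variance over the mean of tnnt2a UMIs was 2.58 on the 1 dpci plate and 2.45 on the 3 dpci plate but 5.36, 4.51 and 4.83 on 7 dpci plates 1, 2 and 3, where 1 is the value of counting alone. For tnni1b it was 1.71, 1.86 and 4.62, 3.00 and 3.42. All 3 of the 7 dpci plates lay above both earlier plates for each of these, with a 7 dpci mean of 4.90 ± 0.430 (SD, n = 3) for tnnt2a and 3.68 ± 0.844 for tnni1b. For tpm4a the values were 1.79, 1.89 and 2.86, 2.37 and 2.40. With all cells the earlier plates gave 3.73 and 3.34 for tnnt2a and 2.23 and 2.34 for tnni1b, still under every 7 dpci plate (4.53 or more and 3.03 or more), whereas tpm4a turned, at 3.3997 and 3.21 on the earlier plates and 3.14, 2.40 and 2.48 on 7 dpci plates 1, 2 and 3. For tnnc1a they were 1.79, 1.77 and 1.58, 1.57 and 2.09, with the earlier plates inside the 7 dpci range, and with all cells 2.43 and 2.29 on the earlier plates lay above the 7 dpci values of 1.61, 1.58 and 2.099. In strict cardiomyocyte wells the mean of tnnt2a was 10.01 and 10.3 UMIs per 1000 at 1 and 3 dpci. On 7 dpci plates 1, 2 and 3 it was 8.30, 11.05 and 10.8, or 10.1 ± 1.53 (SD, n = 3). For tnni1b the means were 4.62, 5.63 and 4.11, 5.76 and 6.58 in the same order. The part of the means in the variance over the mean was not tested. The 10th and 90th percentiles of tnnt2a were 4 and 17 UMIs at 1 dpci and 4.8 and 17 at 3 dpci. On 7 dpci plates 1, 2 and 3 they were 2 and 16, 3 and 20.3, and 3 and 20. Plate 1 thus had a lower 90th percentile than both earlier plates.

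**Figure D4:**
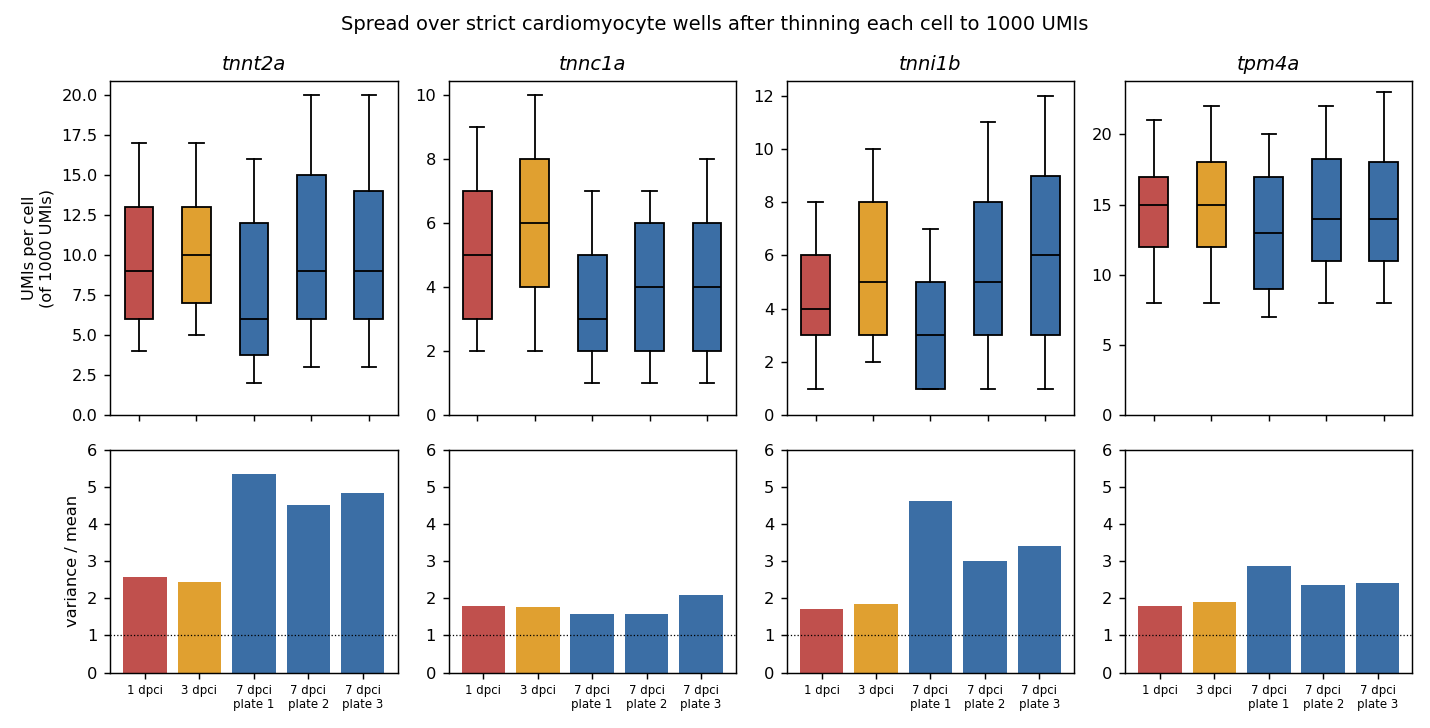
Top, UMIs per cell of each gene in strict cardiomyocyte wells thinned to 1000 UMIs (line, median; box, quartiles; whiskers, the outermost cells within the 10th and 90th percentiles), and bottom, the variance over the mean of the same cells with counting alone dotted at 1. For tnnt2a the bottom bars stand at 2.58 and 2.45 on the earlier plates and between 4.51 and 5.36 at 7 dpci.

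Within a plate the members varied together across cells. Across the cells of a plate, Spearman's rho between shares of UMIs averaged 0.51 over the 5 plates for tnnt2a with tpm4a (0.39 to 0.64 by plate), 0.41 for tnnt2a with tnnc1a, 0.36 for tnnt2a with tnni1b, and 0.30 to 0.35 for the remaining pairs. Among 971 other genes averaging 100 CPM or more, those closest to tnnt2a were MYH7 (a myosin heavy chain, 0.51), LDHB (lactate dehydrogenase, 0.47) and ATP5F1B (an ATP synthase subunit, 0.43), followed by actn2b (0.41) and mb (myoglobin, 0.37). tpm4a shared MYH7, ATP5F1B, actn2b and mb with it, joined by ATP5F1A, at 0.33 to 0.40. tnni1b was closest to ATP5F1B, mb, ATP5F1A, MYBPC3 and MYH7, at 0.33 to 0.40. For tnnc1a the first gene was KCNV1, at a mean of 0.35 that ran from -0.05 to 0.69 by plate, followed by actn2b, MYH7, mb and LDHB at 0.31 to 0.33. The points are cells of 1 library that share depth and the total they are shares of, and cells that are not cardiomyocytes are among them. In strict cardiomyocyte wells the pairs of members stood at 0.22 to 0.44. The named genes stood there at 0.30 to 0.43 with tnnt2a and 0.25 to 0.32 with tpm4a. With tnni1b they stood at 0.24 to 0.32 and with tnnc1a at 0.23 to 0.35. Genes were ranked over all cells. The named ones averaged 655 to 29332 CPM, and the part of abundance in the ranking was not tested.

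Against MYL7, a cardiac myosin regulatory light chain and the most abundant gene of the thick filament list (45849 CPM in strict cardiomyocyte wells of 1 dpci, 52386 of 3 dpci and 72827 to 91237 of 7 dpci), the sign differed between time points. Among these wells the rho of tnnt2a with MYL7 was 0.27 (1 dpci, 245 cells) and 0.09 (3 dpci, 246 cells), and -0.38, -0.17 and -0.22 on 7 dpci plates 1, 2 and 3 (167, 229 and 224 cells). Both genes are shares of 1 total, of which MYL7 took more at 7 dpci, and the part of this in the sign was not tested. MYL7 is also among the markers by which these wells were chosen. For tnnc1a it was 0.42, 0.10 and -0.18, -0.15 and -0.19, and for tpm4a 0.28, 0.01 and -0.31, -0.20 and -0.25. In these wells tnni1b was negative on every plate, at -0.05, -0.21 and -0.40, -0.31 and -0.29. With all cells its rho was 0.29 at 1 dpci, 0.03 at 3 dpci and -0.37, -0.30 and -0.27 on 7 dpci plates 1, 2 and 3. With nppa, the gene behind the sort, the mean rho over plates in strict cardiomyocyte wells lay between -0.08 and 0.06 for the 4 genes. For tnnt2a it was negative on every plate, though as near 0 as -0.00067, and for tnnc1a, tnni1b and tpm4a the plates differed in sign. At 3 dpci all 4 were negative, from -0.19 for tnnt2a to -0.09 for tnni1b, and the highest value was 0.23 for tnni1b on 7 dpci plate 2.

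**Figure D5:**
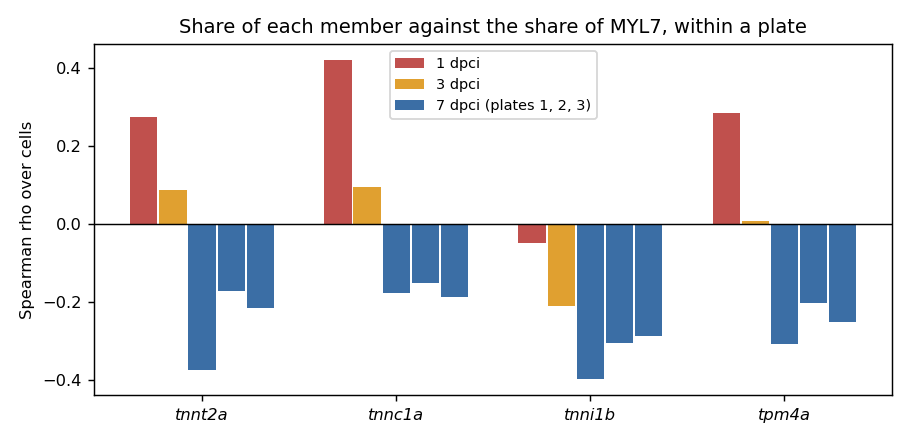
Spearman's rho across strict cardiomyocyte wells of a plate between the share of each gene and the share of MYL7, by plate, as a description without a test. All 4 genes are negative on all 3 of the 7 dpci plates, and 3 of the 4 are positive at 1 dpci, from 0.27 to 0.42.

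Other copies of these genes were scarce among those that could be named. A search for 34 troponin and tropomyosin symbols matched 15 IDs, and a copy under an unnamed ID would have been missed. Of these 15 paralogs, 5 had at least 10 UMIs over all plates: tpm3, TNNC1, tnni1c, TNNI2 and tpm1, with 307, 131, 29, 20 and 16 UMIs. Only tpm3 and TNNC1 passed the CPM filter. The TNNC1 row (ENSDARG00000037539), another troponin C, had 6 UMIs on the 1 dpci plate, a single one on the 3 dpci plate and 6, 70 and 48 on 7 dpci plates 1, 2 and 3, and was called higher against 1 dpci (edgeR log2 fold change 4.43, SE 1.09, adjusted p = 0.0459). Those UMIs sat in few cells: 7 cells held the 70 of plate 2 and 4 cells the 48 of plate 3, so the value rests on few cells. The fold change was 4.30 with TMM before the filter, 4.40 with TMM before and after it and 6.01 in strict cardiomyocyte wells, while its call was lost with TMM before the filter (edgeR adjusted p = 0.0651), with TMM before and after it (0.0508) and in strict cardiomyocyte wells (0.0787). tpm3, a tropomyosin, ran the opposite way with 202, 83, 6, 7 and 9 UMIs, and fell by 2.86 on the log2 scale (SE 0.53, edgeR adjusted p = 0.0182). Of its UMIs, 164 at 1 dpci and 65 at 3 dpci came from the wells that reached the marker limit. In strict cardiomyocyte wells its log2 fold change was still negative, at -1.59 (SE 0.736), but it was not called (edgeR adjusted p = 0.438).

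The rest of the sarcomere was read from lists beside the members. Of 9 thin filament length and capping genes tested, none was called against 1 dpci, where 7.49% of all genes were, or against 3 dpci, where 1.87% were. With 9 genes, 0 called lies near those shares and says little of the list. Against 1 dpci 3 were positive, and the median log2 fold change was -0.11 beside -0.13 over all genes. The most abundant were LMOD2 (leiomodin, 1.01, edgeR adjusted p = 0.132), xirp1 (-0.76, 0.409) and CFL2 (a cofilin, 0.84, 0.282). Of 15 thick filament and Z-disc genes tested, 2 were called higher against 1 dpci, where 2.79% of all genes were, and the same number against 3 dpci, where 0.64% were. In all cells 12 of the 15 were positive against 1 dpci with a median of 0.64, but in strict cardiomyocyte wells 7 of the 15 were, with a median of -0.019 beside -0.078 over all genes. Against 3 dpci none was called in these wells, where 0.563% of all genes were. The 2 were MYL7 (1.99 against 1 dpci, SE 0.199, edgeR adjusted p = 0.00311) and cmlc1, a myosin light chain (1.96, SE 0.270, adjusted p = 0.00587). In strict cardiomyocyte wells MYL7 stayed called against 1 dpci (1.30, adjusted p = 0.0209), cmlc1 did not (1.22, 0.0601), and MYH7 stood at 0.24 (0.820) from 0.97 in all cells (0.102). MYL7, cmlc1 and other genes of this list are among the cardiomyocyte markers by which these wells were chosen. Their values in these wells are therefore no independent check.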

How the data were processed

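Per the labels and methods, the authors sorted single cells, made SORT-seq libraries, mapped reads to Zv9 and deposited UMI tables. The deposited values are estimated counts, UMIs per gene and well corrected for collisions among 4096 possible barcodes, and turning that correction back gave whole numbers (within 0.02) for 100% of values. BWA 0.6.2 is in the submitters' processing notes, with no role given. Gene names came from a table that named 14285 of 17997 IDs.

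ERCC spike-ins, 13 named and 2 unnamed mitochondrial genes were left out. Estimated counts of wells with at least 500 UMIs were summed per plate, rounded, and tested in edgeR 4.0.16 (quasi-likelihood, TMM, all 5 plates in 1 fit with 3 groups, Benjamini-Hochberg adjustment, two-sided) in R 4.3.3. The quasi-likelihood test gives no standard error. The SE printed with an edgeR log2 fold change is its absolute value divided by the square root of the test's F statistic. DESeq2 1.42.0 was an alternative. The CPM filter of 10 came before TMM. That order had not been fixed: TMM before the filter was run first and called no member, 3 orders were run and their results for the members seen, and the usual edgeR order, which gave nearly the gene counts of an earlier description of these data, was then kept. Both other orders are reported beside the result, since one of them loses every member's call. The members and gene lists were chosen with earlier results of these data known. The named genes were the 4 members, paralogs with at least 10 UMIs, the 3 most abundant and the called genes of the other lists, and 5 genes per member of highest mean within-plate correlation. The test was checked on simulated data drawn with the same spread per gene on all 5 plates. That check cannot show whether the lone plates vary like the others. Ratios of 3 to 1 dpci have exact 95% intervals, which, like those of CPM and of ratios between members, cover counting error only. The intervals of shares of cells are binomial and treat the cells of a plate as independent. None of the intervals covers the spread between plates. No doublet caller was run.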

Additional observations from a re-analysis of the deposited data

Results flagged for a closer look

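The 745 wells under 500 UMIs, which entered no comparison, also held UMIs of the 4 genes, above the 3 counts that a count of 0 allows. For genes this abundant that was bound to occur, and it is no result in itself. Over the 5 plates these wells had 1613 UMIs of tpm4a, 934 of tnnt2a, 621 of tnni1b and 347 of tnnc1a among 123990 UMIs in all. Their CPM lay both near and away from those of the cells. At 1 dpci the 101 such wells had tnnt2a at 6450 CPM, beside 6564 in the cells, and tpm4a at 10051 beside 9505. On 7 dpci plate 1 tnnt2a stood at 5282 CPM beside 7858. On 7 dpci plate 2 tpm4a stood at 18463 CPM beside 14134, and tnni1b at 7978 beside 6142, and on plate 3 tnni1b stood at 9226 beside 6912. In wells under 100 UMIs tnnt2a still stood at 5113 (1 dpci) to 9849 CPM (7 dpci plate 3), on 7 and 32 UMIs. Whether such UMIs also reached the wells led by macrophage markers was not tested.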

How the results depend on the processing

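No paired analysis was possible because 1 and 3 dpci have 1 plate each and their labels carry no replicate number. Strict cardiomyocyte wells and the other orders of TMM and filter were chosen after seeing the data. The calls of tnnt2a, tnni1b and tpm4a against 1 dpci held with DESeq2, without the CPM filter, with every cell scaled to the same total and with TMM before and after the filter, and were lost or turned under the settings below. The cause was not tested. Against 1 dpci, genes called higher and lower numbered 151 and 546 of 17881 tested without the CPM filter. With every cell scaled to the same total they numbered 249 and 258 of 4806. With 1 plate at 1 and at 3 dpci, the precision rests on the spread of the 7 dpci plates. The count of genes called, 7 vs 1 dpci, was 421 and became 697 (no CPM filter), 249 (wells with at least 1000 UMIs), 888 (ERCC totals as library size), 34 (strict cardiomyocyte wells), 46 (strict cardiomyocyte wells, library totals without TMM). The count of genes called, 7 vs 3 dpci, was 105 and became 201 (DESeq2), 311 (no CPM filter), 55 (wells with at least 1000 UMIs), 294 (wells above 3 times the plate median left out), 281 (every cell scaled to the same total), 27 (strict cardiomyocyte wells), 36 (strict cardiomyocyte wells, library totals without TMM). With library totals without TMM, 7 vs 1 dpci, tnnt2a lost its call at 0.52, tnni1b lost its call at 0.83, tpm4a lost its call at 0.47. With TMM before the CPM filter, 7 vs 1 dpci, tnnt2a lost its call at 1.103, tnni1b lost its call at 1.43, tpm4a lost its call at 1.05. With wells with at least 1000 UMIs, 7 vs 1 dpci, tnnt2a lost its call at 1.22, tnni1b lost its call at 1.56, tpm4a lost its call at 1.15. With cardiomyocyte wells, 7 vs 1 dpci, tnnt2a lost its call at 1.01, tnni1b lost its call at 1.33. With wells above 3 times the plate median left out, 7 vs 1 dpci, tnnt2a lost its call at 0.70, tnni1b lost its call at 0.93. With ERCC totals as library size, 7 vs 1 dpci, tnnt2a turned direction at -0.44, tnnc1a turned direction at -0.84, tnni1b turned direction at -0.15, tpm4a turned direction at -0.45. With strict cardiomyocyte wells, 7 vs 1 dpci, tnnt2a lost its call at 0.51, tnni1b lost its call at 0.84, tpm4a lost its call at 0.51. With strict cardiomyocyte wells, library totals without TMM, 7 vs 1 dpci, tnnt2a turned direction at -0.0055, tnnc1a turned direction at -0.42, tnni1b lost its call at 0.32, tpm4a turned direction at -0.0017. With ERCC totals as library size, 7 vs 3 dpci, tnnt2a turned direction at -0.61, tnnc1a turned direction at -1.30, tnni1b turned direction at -0.59, tpm4a turned direction at -0.71. With strict cardiomyocyte wells, library totals without TMM, 7 vs 3 dpci, tnnt2a turned direction at -0.064, tnnc1a turned direction at -0.75, tpm4a turned direction at -0.19. With library totals without TMM, 7 vs 3 dpci, tnnc1a turned direction at -0.51. With TMM before the CPM filter, 7 vs 3 dpci, tnnc1a turned direction at -0.0233. With no CPM filter, 7 vs 3 dpci, tnnc1a turned direction at -0.0234. With cardiomyocyte wells, 7 vs 3 dpci, tnnc1a turned direction at -0.059. With every cell scaled to the same total, 7 vs 3 dpci, tnnc1a turned direction at -0.037. With strict cardiomyocyte wells, 7 vs 3 dpci, tnnc1a turned direction at -0.32. The log2 ratio of 3 to 1 dpci with library totals without TMM was 0.35 for tnnt2a, 0.63 for tnnc1a, 0.62 for tnni1b, 0.44 for tpm4a. The log2 ratio of 3 to 1 dpci with cardiomyocyte wells was 0.37 for tnnt2a, 0.65 for tnnc1a, 0.64 for tnni1b, 0.47 for tpm4a. The log2 ratio of 3 to 1 dpci with wells above 3 times the plate median left out was 0.054 for tnnt2a, 0.24 for tnnc1a, 0.29 for tnni1b, 0.14 for tpm4a. The log2 ratio of 3 to 1 dpci with every cell scaled to the same total was 0.19 for tnnt2a, 0.45 for tnnc1a, 0.40 for tnni1b, 0.31 for tpm4a. The log2 ratio of 3 to 1 dpci with ERCC totals as library size was 0.17 for tnnt2a, 0.45 for tnnc1a, 0.44 for tnni1b, 0.26 for tpm4a. The log2 ratio of 3 to 1 dpci with strict cardiomyocyte wells was 0.14 for tnnt2a, 0.42 for tnnc1a, 0.40 for tnni1b, 0.27 for tpm4a. The share of 7 dpci cells with a UMI after thinning to 500 UMIs was 93.3% for tnnt2a, 80.2% for tnnc1a, 76.0% for tnni1b. The share of 7 dpci cells with a UMI in unthinned cells was 90.2% for tnni1b. Leaving out each 7 dpci plate in turn gave 0 to 1324 genes called, 7 vs 1 dpci. It gave log2 fold changes, 7 vs 1 dpci, of 1.24 to 1.53 for tnnt2a, 0.82 to 1.09 for tnnc1a, 1.51 to 1.91 for tnni1b, 1.22 to 1.41 for tpm4a. Leaving out each 7 dpci plate in turn gave 0 to 790 genes called, 7 vs 3 dpci. It gave log2 fold changes, 7 vs 3 dpci, of 0.74 to 1.03 for tnnt2a, 0.04 to 0.31 for tnnc1a, 0.74 to 1.14 for tnni1b, 0.63 to 0.82 for tpm4a. Without plate 2 edgeR called 0 genes (724 and 435 at an unadjusted p under 0.05 against 1 and 3 dpci). Genes called higher and lower against 1 dpci numbered 69 and 274 with TMM before the filter and 221 and 175 with DESeq2. Against 3 dpci they numbered 36 and 69 as reported, 18 and 70 with TMM before the filter, 119 and 82 with DESeq2, 11 and 109 with library totals and 2 and 149 with ERCC totals.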
